A study of Mus musculus with 8 samples.

Results

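The genes of sterol and fatty acid synthesis were examined in nephron progenitor cells of the embryonic mouse kidney that lacked Vhl. Vhl encodes the substrate-binding subunit of the ubiquitin ligase that removes hypoxia-inducible factors when oxygen is present. A list of 30 genes was taken by name from the 20254 genes of the table. It held 8 genes of the steps between acetyl-CoA and farnesyl diphosphate, 11 of the steps between squalene and cholesterol and 5 of fatty acid synthesis. The other 6, grouped as regulators, were Srebf1 and Srebf2, which encode the sterol regulatory element-binding proteins (SREBPs), and Scap, Insig1, Insig2 and the sterol carrier Stard4. All 30 passed the filter on low values, as did 15381 genes of the table. Within the list, the 6 enzymes that use molecular oxygen (Sqle, Cyp51, Msmo1, Sc5d, Scd1 and Scd2) were also set beside the 24 other members.

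Polyadenylated RNA was sequenced from GFP-sorted cells of kidneys at embryonic day 17.5, in 4 libraries of the genotype VHLNP-/- (mutants 1 to 4) and 4 libraries of the genotype VHLNP+/- (controls 1 to 4). Every library came from the strain Six2EGFPcre, in which Six2, a transcription factor gene of nephron progenitors, drives both GFP and the Cre recombinase. The controls therefore carried the same Cre and 1 deleted Vhl allele, and cells descended from progenitors can keep GFP for a time. The labels do not say whether the libraries came from separate embryos or from pools, and the p-values reflect only how far these libraries differ among themselves. The recovered reads per library totalled between 37252683 and 46515762.

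Cells make cholesterol from acetyl-CoA through mevalonate, farnesyl diphosphate, squalene and lanosterol, and make fatty acids from the same acetyl-CoA through malonyl-CoA. When membranes run short of sterol, SCAP carries SREBPs from the endoplasmic reticulum to the Golgi, where they are cut and released to activate these genes; INSIG proteins hold SCAP back when sterol is plentiful. Several steps consume oxygen, and Insig2 is a known target of hypoxia-inducible factors, which links the pathway to oxygen sensing.

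Vhl had 320, 285, 331 and 336 normalised reads (reads per gene divided by the size factor of the library) in mutants 1 to 4, against 1134, 1379, 1208 and 1180 in controls 1 to 4. The mutant libraries lay below the control libraries, with a log2 fold change of −1.94 (SE 0.08, adjusted p = 4.22e-08), and the exact permutation test over 70 relabellings gave its smallest possible two-sided p of 0.0286. Six2 averaged 24101 ± 2210 in mutants and 25540 ± 2810 in controls (SD, n = 4 each), and Cited1, another marker of uncommitted progenitors, 2792 ± 384 in mutants and 2951 ± 348 in controls. The summed level of the 9 progenitor markers ran between 102909 and 111264 in mutants and between 105015 and 114891 in controls, with Gdnf higher and Osr1 and Meox1 lower in mutants. The 6 podocyte markers summed to between 14245 and 16046 in mutants and between 17285 and 22148 in controls, without overlap. Wt1, which progenitors express as well, made up most of that sum. The 7 stroma markers summed to between 14818 and 29577 in mutants and between 16937 and 37666 in controls, the highest being control 1. Sums overlapped between the groups for endothelial markers (1925 to 2484 in mutants, 1392 to 2638 in controls, with Plvap higher in mutants), for tubule markers (3924 to 9457 in mutants, 2246 to 8126 in controls), for ureteric bud markers (2250 to 3652 in mutants, 1793 to 3142 in controls) and for leukocyte markers (491 to 793 in mutants, 437 to 852 in controls). Of 6 erythroid markers 3 were in the table and 1 was tested, with sums of 63.1 to 130 in mutants and 75.6 to 129 in controls, and Hba-a1 was at 0 in each library except mutant 1 (5.68). The part of any of these cells in the values below was not tested. In bulk RNA, fewer cells of a type and less RNA per cell cannot be told apart.

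Msmo1, Tm7sf2 and Scd1 fell in mutants and Insig2 rose, while 26 of the 30 members were not called. Of the 15381 tested genes, 8.43% were called at an adjusted p under 0.05, with 3.03% lower and 5.4% higher in mutants. Against these shares the 3 lower members of 30 were more than the background and the 1 higher member was fewer, on counts of very few genes. Most members had small estimates below 0. The log2 fold change was below 0 for 24 of the 30 (80.0%), against 51.5% of all tested genes. The median over the members was −0.17, against −0.01 over all tested genes, and the members ran from −0.40 to 0.29. An unadjusted p under 0.05 was reached by 15 members with estimates below 0, where 11.2% of all tested genes did so, and by 1 above 0, where 12.0% did. In 8 members (Acat2, Mvd, Fdps, Cyp51, Tm7sf2, Msmo1, Acaca and Scd1) each mutant library lay below each control library, an arrangement found in 6.72% of all tested genes. Insig2 alone among the members had each mutant library above each control library, an arrangement found in 8.54% of tested genes. By the adjusted p of the authors' deposited table, 8 members were lower (Acat2, Mvd, Fdps, Sqle, Tm7sf2, Msmo1, Acaca and Scd1), where 5.35% of its 15144 genes with an adjusted p were lower, and Insig2 was higher, where 7.12% were. With library quality weights in limma, 11 members were lower, where 8.93% of all tested genes were, and Tm7sf2 was not among the 11.

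**Figure D1:**
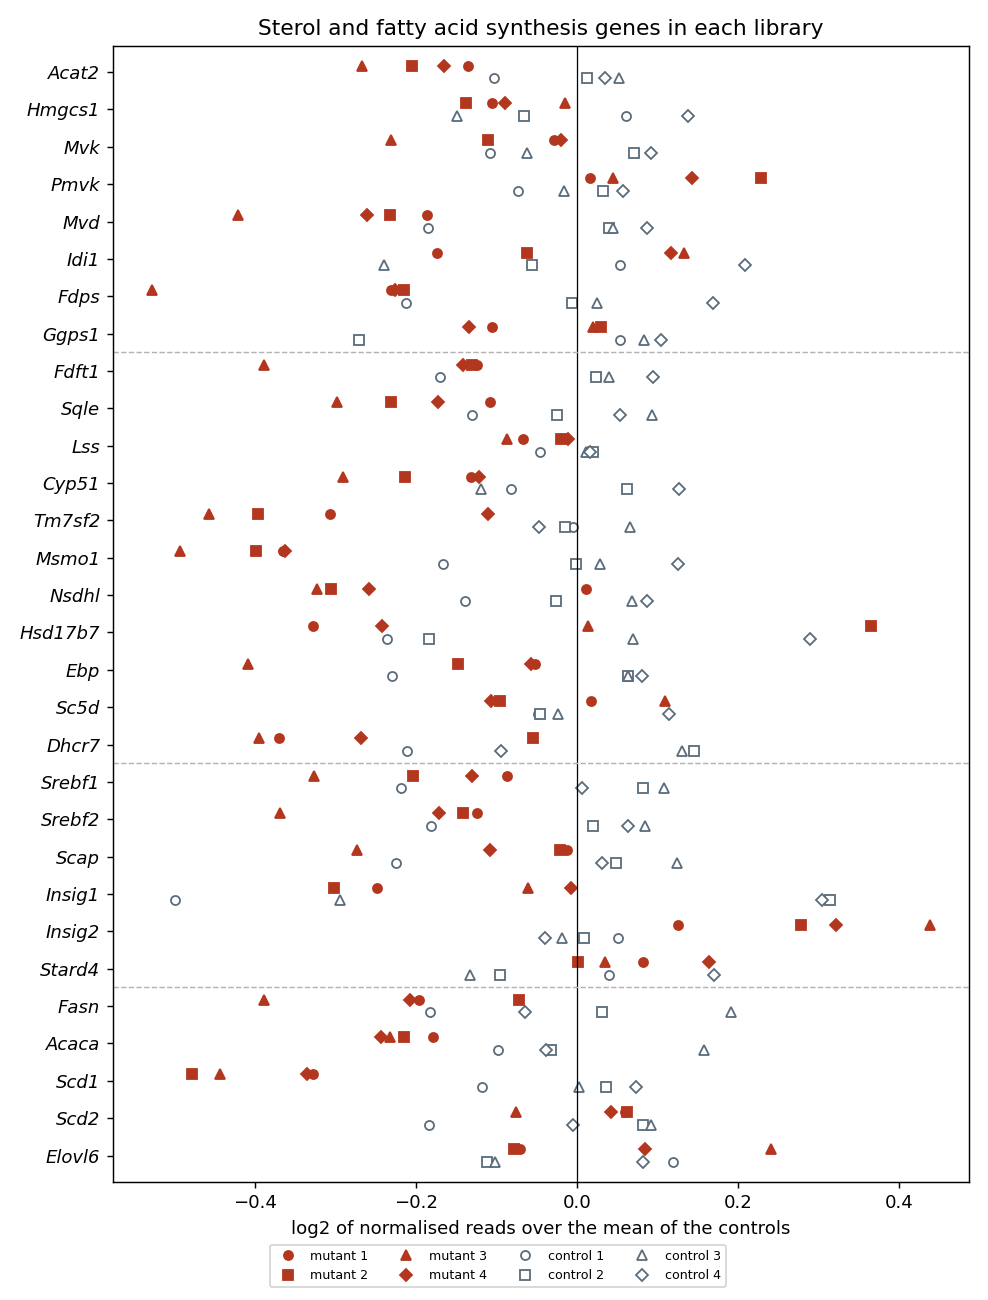
Each point is 1 library, on a horizontal axis of log2 normalised reads over the mean of the 4 controls, with mutants as filled red and controls as open grey symbols and dashed lines between the roles. Msmo1 and Scd1 have the 4 mutants to the left of the 4 controls, Insig2 has them to the right, and control 1 (open circle) lies left of the other controls in 22 of 30 members.

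The libraries were not alike within their groups. Control 1 was the lowest control for 22 of the 30 members, and it lay within the range of the mutants for 16 of the 30. Its median log2 deviation from the control mean over the members was −0.12, where the other controls had 0.02 to 0.09 and the mutants −0.27 to −0.11. Mutant 3 was the lowest mutant for 18 members. Without control 1, 10 members were called lower (Acat2, Mvd, Fdps, Sqle, Msmo1, Dhcr7, Srebf1, Srebf2, Acaca and Scd1), where 4.24% of all tested genes were, and Insig2 remained called higher. Tm7sf2 was not among those 10. Msmo1 and Scd1 kept their calls without any 1 of the 8 libraries, with adjusted p-values of at most 0.018 for Msmo1 and 0.0139 for Scd1. The calls of Tm7sf2 and Insig2 were less firm: Tm7sf2 kept its call only without mutant 4 (adjusted p up to 0.103 over the 8 fits), and Insig2 only without control 1 or mutant 1 (adjusted p up to 0.0835).

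The genes between acetyl-CoA and farnesyl diphosphate showed no called change. Their median log2 fold change was −0.09, 6 of the 8 were below 0 and 3 had an unadjusted p under 0.05. Acat2, the cytosolic thiolase that joins 2 acetyl-CoA, had 3988, 3799, 3639 and 3907 normalised reads in mutants 1 to 4, against 4079, 4420, 4541 and 4487 in controls 1 to 4. Its mutant libraries lay below the controls, mutant 1 coming close to control 1, and the log2 fold change was −0.19 (SE 0.06, adjusted p = 0.0575). Exons of Acat2 share 39.1% of their 50-base words with other genes, chiefly Acat3 and Tcp1, so its reads may be split between them. Mvd, the decarboxylase that ends the mevalonate steps, had 1001, 970, 851 and 951 reads in mutants, against 1002, 1171, 1175 and 1210 in controls. Mutant 1 and control 1 were nearly equal while the other libraries were well apart, and the log2 fold change was −0.27 (SE 0.08, adjusted p = 0.0571). Fdps, which makes farnesyl diphosphate, had 2044, 2067, 1664 and 2051 reads in mutants, against 2072, 2390, 2441 and 2698 in controls. Again control 1 lay beside 3 of the mutants, and mutant 3 far below them, with a log2 fold change of −0.29 (SE 0.09, adjusted p = 0.077). Fdps shares 26.2% of its 50-base words with other genes.

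The other 5 genes of these steps had overlapping groups. Hmgcs1, the HMG-CoA synthase, ran between 4494 and 4892 reads in mutants and between 4461 and 5440 in controls (log2 fold change −0.08, adjusted p = 0.507). Mvk, the first kinase of mevalonate, ran between 798 and 924 in mutants and between 869 and 998 in controls (−0.10, adjusted p = 0.483). Pmvk, the kinase that follows it, ran between 1139 and 1319 in mutants and between 1070 and 1171 in controls and had an estimate above 0 (0.11, adjusted p = 0.355). Both kinases thus stayed within the spread of the libraries. Idi1, the isopentenyl diphosphate isomerase, ran between 1726 and 2135 in mutants and between 1649 and 2250 in controls (0.01, adjusted p = 0.96), and shares 25.3% of its 50-base words with other genes. Ggps1, which draws farnesyl diphosphate into protein prenylation, ran between 1584 and 1776 in mutants and between 1441 and 1870 in controls (−0.04, adjusted p = 0.833).

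Between squalene and cholesterol all 11 estimates were below 0, with a median of −0.19, and 2 genes were called lower. Msmo1 encodes the methylsterol monooxygenase, which uses oxygen in the removal of methyl groups from sterols formed from lanosterol. It lies at chr8:64718139-64733792 (GRCm38, minus strand). Its normalised reads were 1112, 1087, 1018 and 1114 in mutants 1 to 4, against 1277, 1432, 1461 and 1563 in controls 1 to 4. The groups did not overlap, and the means were 1083 ± 45.1 in mutants and 1433 ± 118 in controls (SD, n = 4 each). Msmo1 fell to 75.7% of the control level, a log2 fold change of −0.40 (SE 0.07, adjusted p = 0.00433). Tm7sf2, a sterol reductase of the endoplasmic reticulum that acts just after the lanosterol demethylase, lies at chr19:6062821-6068373 (minus strand) and had 597, 561, 538 and 684 reads in mutants, against 736, 731, 773 and 715 in controls. Mutant 4 came close to control 4, and the means were 595 ± 64.4 in mutants and 739 ± 24.8 in controls, a log2 fold change of −0.32 (SE 0.08, adjusted p = 0.038). The exons of Tm7sf2 overlap those of Vps51 on the same strand over 532 bases, and Vps51 averaged 2785 ± 129 in mutants and 2854 ± 145 in controls (log2 fold change −0.04).

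Promoters are shown for 4 members: Hmgcs1 and Fasn, SREBP targets that were not called, Mvd, whose mutant libraries lay below the controls, and Insig2, the called gene with a higher level. Each is the 250 bases before the first listed RefSeq transcript start in GRCm38.p6, written 5′ to 3′ along the strand of the gene, at chr13:119690101-119690350 (plus strand) for Hmgcs1, chr8:122443423-122443672 (minus) for Mvd, chr11:120824548-120824797 (minus) for Fasn and chr1:121332590-121332839 (minus) for Insig2. The set of RefSeq promoters used held 24 members and lacked Fdps, Fdft1, Sqle, Stard4, Scd1 and Scd2, so the counts below leave these out. Of the 24, 10 had a window free of annotated exons, while those of Msmo1 and Tm7sf2 overlapped annotated exons and are not printed. Capitals mark CCAAT on either strand (ATTGG on the strand printed), the core of the binding site of NF-Y, a factor that works beside SREBPs, and TCACNCCAC, a form of the sterol regulatory element.
Hmgcs1: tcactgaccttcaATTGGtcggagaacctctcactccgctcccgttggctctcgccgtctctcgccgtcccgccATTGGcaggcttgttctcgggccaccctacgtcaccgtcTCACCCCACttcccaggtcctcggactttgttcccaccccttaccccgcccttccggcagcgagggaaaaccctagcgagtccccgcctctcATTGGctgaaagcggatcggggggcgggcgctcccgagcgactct
Mvd: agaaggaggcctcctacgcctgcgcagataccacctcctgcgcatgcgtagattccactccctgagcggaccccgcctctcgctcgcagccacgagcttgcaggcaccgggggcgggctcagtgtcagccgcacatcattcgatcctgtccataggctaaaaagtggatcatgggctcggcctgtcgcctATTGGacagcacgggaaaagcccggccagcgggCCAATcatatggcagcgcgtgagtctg
Fasn: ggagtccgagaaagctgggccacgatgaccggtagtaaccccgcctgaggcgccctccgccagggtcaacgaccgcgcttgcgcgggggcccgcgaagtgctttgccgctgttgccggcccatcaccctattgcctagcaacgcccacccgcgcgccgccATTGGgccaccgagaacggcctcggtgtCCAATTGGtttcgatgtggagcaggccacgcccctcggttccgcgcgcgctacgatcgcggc
Insig2: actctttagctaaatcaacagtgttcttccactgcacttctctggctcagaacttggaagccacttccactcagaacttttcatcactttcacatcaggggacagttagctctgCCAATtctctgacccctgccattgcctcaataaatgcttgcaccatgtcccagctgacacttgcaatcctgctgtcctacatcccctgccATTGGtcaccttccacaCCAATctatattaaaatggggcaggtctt
A CCAAT on either strand stood in the promoters of 19 of these 24 members (79.2%), against 34.5% of 27025 promoters of the same length. It occurs 3 times in the window of Hmgcs1, 2 times in that of Mvd, 3 times in that of Fasn and 3 times in that of Insig2, and likewise 3 times in that of Msmo1 and 1 time in that of Tm7sf2, while the promoters at the other 2 listed starts of Insig2 hold it 0 times. TCACNCCAC stood in 1 of the 24, Hmgcs1 (4.17%), against 1.04% of all promoters. ACGTG, the core of the hypoxia response element, stood in 3 of the 24, Hsd17b7, Insig1 and Sc5d (12.5%), against 16.6% of all promoters. These shares take the first listed start of a gene, and a second listed start of Dhcr7 and of Scap also held ACGTG, with 2 matches each. A CACGTG gives 1 match on each strand, so 2 matches can be 1 site. All 3 motifs were searched on both strands, and in the printed promoters only 2 CCAAT matches of Fasn, on opposite strands, overlapped (CCAATTGG). These are matches of letters in short windows, and binding was not measured.

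The other oxygen-using steps of sterol synthesis were not called. Sqle, the squalene epoxidase, had 2766, 2540, 2424 and 2644 reads in mutants, against 2723, 2929, 3180 and 3092 in controls. Mutant 1 lay above control 1, and the log2 fold change was −0.20 (SE 0.06, adjusted p = 0.0863). Cyp51, the lanosterol demethylase, had 2572, 2429, 2304 and 2589 reads in mutants, against 2662, 2940, 2593 and 3077 in controls. Its groups did not overlap, although mutant 4 and control 3 were nearly equal, with a log2 fold change of −0.19 (SE 0.07, adjusted p = 0.131). Sc5d, the oxygen-using desaturase near the end of the pathway, had 956, 884, 1019 and 877 reads in mutants, against 913, 915, 929 and 1022 in controls. The groups lay across each other, and the 95% interval of its log2 fold change ran from −0.17 to 0.14 around −0.02.

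The remaining sterol enzymes were not called either. Fdft1, the squalene synthase, ran between 1512 and 1816 in mutants and between 1760 and 2113 in controls (log2 fold change −0.19, adjusted p = 0.164), with 26.5% of its 50-base words shared with other genes. Lss, which folds squalene epoxide into lanosterol, was among the steadiest members, between 1404 and 1480 in mutants and between 1445 and 1513 in controls (−0.05, adjusted p = 0.639). Dhcr7, the reductase that yields cholesterol, ran between 1176 and 1489 in mutants and between 1336 and 1710 in controls (−0.26, adjusted p = 0.134). Hsd17b7, a ketosteroid reductase that works with Msmo1, spread most of all 30 in mutants, from 640 to 1034, and in controls from 682 to 981 (−0.03, adjusted p = 0.937). Nsdhl, the dehydrogenase of the same demethylation, had 1055, 847, 837 and 875 reads in mutants, against 951, 1028, 1098 and 1112 in controls (−0.22, adjusted p = 0.158). Ebp, the sterol isomerase, had 621, 581, 485 and 619 reads in mutants, against 549, 673, 673 and 681 in controls (−0.16, adjusted p = 0.386). Nsdhl and Ebp lie on the X chromosome, and the libraries differed in Xist, the RNA of the inactive X: mutant 2 had 51.9 and control 2 had 8.84 normalised reads, while each other library had at least 60017. Without mutant 2 and control 2 the log2 fold changes were −0.20 for Nsdhl and −0.14 for Ebp.

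Among the regulators the paralogs Insig1 and Insig2 had unlike values. Insig2, whose product retains SCAP in the endoplasmic reticulum, lies at chr1:121304353-121332589 (minus strand) and had 1367, 1520, 1698 and 1567 normalised reads in mutants 1 to 4, against 1298, 1261, 1237 and 1219 in controls 1 to 4. The mutants lay above the controls and were more spread, with means of 1538 ± 137 in mutants and 1254 ± 34.4 in controls. Insig2 rose 1.22-fold, a log2 fold change of 0.29 (SE 0.07, adjusted p = 0.0247). Insig1, which does the same work and is itself a target of SREBPs, had 2036, 1963, 2319 and 2407 reads in mutants, against 1711, 3007, 1973 and 2987 in controls. Controls 2 and 4 lay above each mutant, control 1 below each mutant and control 3 within their range, with a coefficient of variation of 9.86% in mutants and 27.9% in controls, and the 95% interval of the log2 fold change ran from −0.56 to 0.34. The log2 ratio of Insig2 to Insig1 averaged −0.50 ± 0.11 in mutants and −0.90 ± 0.44 in controls, a difference of 0.40 (exact permutation p = 0.143, adjusted over 3 paralog ratios 0.214). Control 1 had a ratio of −0.40, within the mutants' range of −0.62 to −0.37.

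The genes of the SREBPs and of their escort were not called over the 8 libraries. Srebf2, whose product drives sterol synthesis, had 9182, 9066, 7748 and 8887 reads in mutants, against 8824, 10146, 10605 and 10453 in controls (log2 fold change −0.20, SE 0.08, adjusted p = 0.143). Srebf1, whose products drive fatty acid synthesis above all, had 4652, 4292, 3941 and 4512 reads in mutants, against 4248, 5232, 5326 and 4963 in controls (−0.18, SE 0.08, adjusted p = 0.20). In both genes control 1 fell among the mutants and the other 3 controls lay above each mutant, and without control 1 both genes were called lower. The log2 ratio of Srebf1 to Srebf2 was −1.0 ± 0.05 in mutants and −1.02 ± 0.05 in controls, a difference of 0.02 (exact permutation p = 0.829). Scap ran between 3639 and 4362 in mutants and between 3764 and 4795 in controls (log2 fold change −0.10, adjusted p = 0.531). Stard4, a carrier of sterol between membranes, ran between 812 and 909 in mutants and between 740 and 913 in controls (0.08, adjusted p = 0.617).

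Of the fatty acid genes 1 was called. Scd1, a stearoyl-CoA desaturase that uses oxygen to make monounsaturated fatty acids, lies at chr19:44394455-44407879 in GRCm38 and had 1222, 1101, 1128 and 1216 normalised reads in mutants 1 to 4, against 1413, 1573, 1537 and 1614 in controls 1 to 4. The groups did not overlap, with means of 1167 ± 61.4 in mutants and 1534 ± 86.7 in controls. Scd1 fell to 76.1% of the control level, a log2 fold change of −0.39 (SE 0.06, adjusted p = 0.00272). Scd2, a paralog on the same chromosome at chr19:44293674-44306864, had 57003, 57130, 51919 and 56363 reads in mutants, against 48151, 57919, 58327 and 54529 in controls. Its groups overlapped throughout, with a log2 fold change of 0.03 and a 95% interval of −0.13 to 0.18. The log2 ratio of Scd1 to Scd2 was −5.57 ± 0.08 in mutants and −5.15 ± 0.08 in controls. This difference of −0.42 was seen in 4 of 4 mutants, below each control, and the exact permutation p was 0.0286, the smallest that 70 relabellings allow (adjusted over 3 ratios 0.0857). Per kilobase of exon, Scd1 took 2.06% to 2.31% of the summed level of Scd1 to Scd4 in mutants and 2.78% to 3.11% in controls. Scd2 took 95.1% to 95.7% in mutants and 94.0% to 94.4% in controls, so Scd2, which was not called, supplied nearly all of this transcript pool. Scd3 (log2 fold change −0.16, adjusted p = 0.206) and Scd4 (−0.42, adjusted p = 0.127) were not called either.

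Acaca, the acetyl-CoA carboxylase that forms malonyl-CoA, had 5071, 4950, 4887 and 4853 reads in mutants, against 5366, 5617, 6404 and 5590 in controls. The mutants were tightly grouped below the controls, with a log2 fold change of −0.21 (SE 0.06, adjusted p = 0.0548), and 30.4% of its 50-base words are shared with other genes. Fasn, the fatty acid synthase, had 19027, 20753, 16657 and 18878 reads in mutants, against 19215, 22287, 24895 and 20852 in controls. The groups overlapped through mutant 2 and control 1 (log2 fold change −0.21, SE 0.09, adjusted p = 0.179). Elovl6, which elongates palmitate, ran between 6505 and 8119 in mutants and between 6356 and 7462 in controls (0.05, adjusted p = 0.789).

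**Figure D2:**
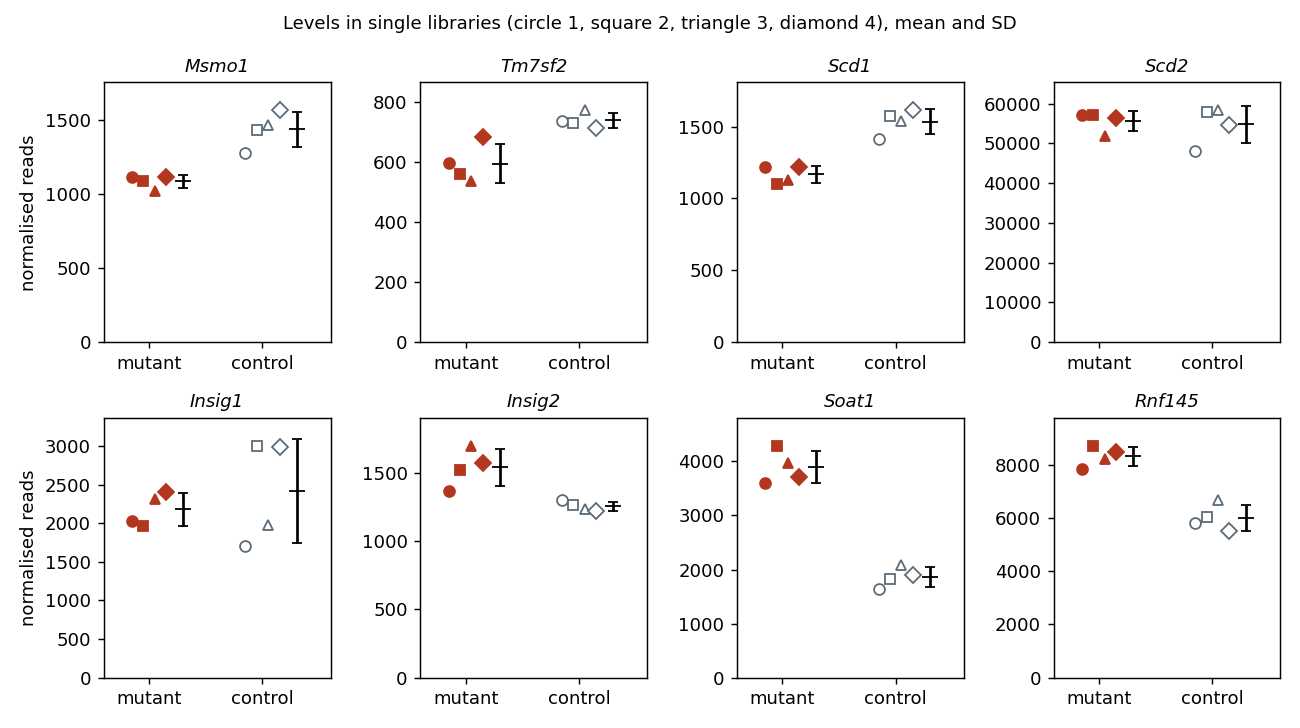
Normalised reads per library are shown for 8 genes, with mutants as filled symbols left of controls as open symbols and black bars for mean ± SD (n = 4 each). Msmo1, Tm7sf2 and Scd1 lie lower in mutants, Insig2, Soat1 and Rnf145 higher, and the Scd2 and Insig1 groups overlap.

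The members spanned a wide range of levels. Per kilobase of exon, on the scale of normalised reads, Scd2 stood first with 10200 in mutants and 10000 in controls, far from Fasn with 1720 in mutants and 1990 in controls. Acat2 followed with 1510 in mutants and 1720 in controls, and Srebf2 with 1210 in mutants and 1390 in controls. Fasn and Acat2 overlapped over the 8 libraries (1520 to 2270 and 1430 to 1790), as did Hmgcs1 and Elovl6 (971 to 1180 and 988 to 1260). At the lower end stood Lss (134 in mutants, 138 in controls), Stard4 (153 in mutants, 145 in controls), Hsd17b7 (155 in mutants, 157 in controls) and Tm7sf2 (135 in mutants, 168 in controls), whose ranges also met. Msmo1 lay just above these, with 176 in mutants and 233 in controls. Lengths are unions of all annotated exons, and the long unions of Acaca (17.07 kb) and Lss (10.79 kb) lower their place.

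**Figure D3:**
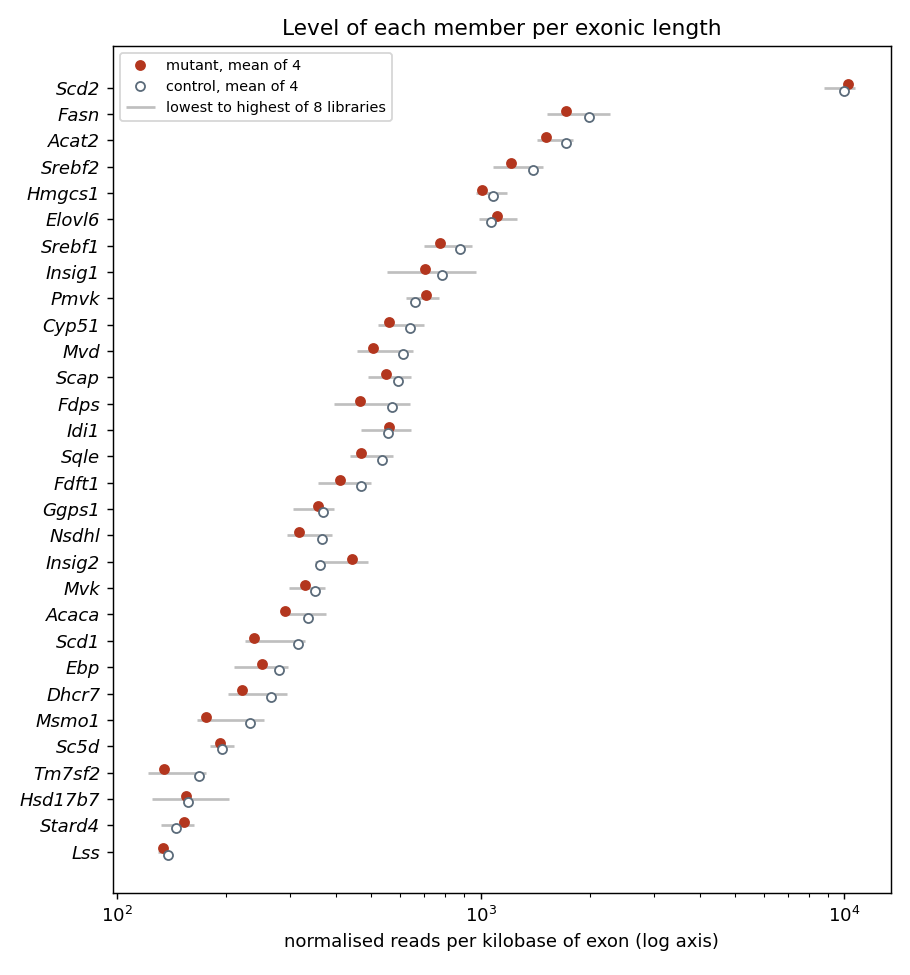
The level of each member is plotted as normalised reads per kilobase of exon on a log axis, with filled red circles for the mean of 4 mutants, open circles for the mean of 4 controls and grey lines from the lowest to the highest of 8 libraries. Scd2 stands apart at about 10200 in mutants and 10000 in controls, and the called Msmo1, Tm7sf2 and Scd1 are among the 9 lowest in controls.

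The oxygen-consuming steps were then set beside the other members, as a description with no test. Of the 6, Msmo1 and Scd1 were called lower and Sqle, Cyp51, Sc5d and Scd2 were not called, while of the 24 others Tm7sf2 was lower and Insig2 higher. The median log2 fold change was −0.19 over the 6 and −0.14 over the 24. As a mean log2 deviation from the control mean, the 6 steps had −0.20 ± 0.05 in mutants (−0.25 to −0.14) and 0.00 ± 0.09 in controls (−0.12 to 0.08). The 24 others had −0.11 ± 0.04 in mutants (−0.17 to −0.08) and 0.00 ± 0.08 in controls (−0.11 to 0.08). Control 1 was the lowest control in both and lay inside the mutants' range for the 24. The 6 minus the 24 gave −0.03, −0.14, −0.07 and −0.10 in mutants 1 to 4, against −0.01, 0.01, 0.00 and 0.00 in controls 1 to 4. The mutants thus lay below the controls by an average of 0.08, and control 1 was close to the other controls on this scale. The 6 steps were uneven, with log2 fold changes of −0.40 for Msmo1 and −0.39 for Scd1. Those of Sqle (−0.20), Cyp51 (−0.19), Sc5d (−0.02) and Scd2 (0.03) were, in their mean, not below the −0.11 of the 24 others. The lower mean of the 6 thus rested on Msmo1 and Scd1 and was not a trait of the steps as a set.

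**Figure D4:**
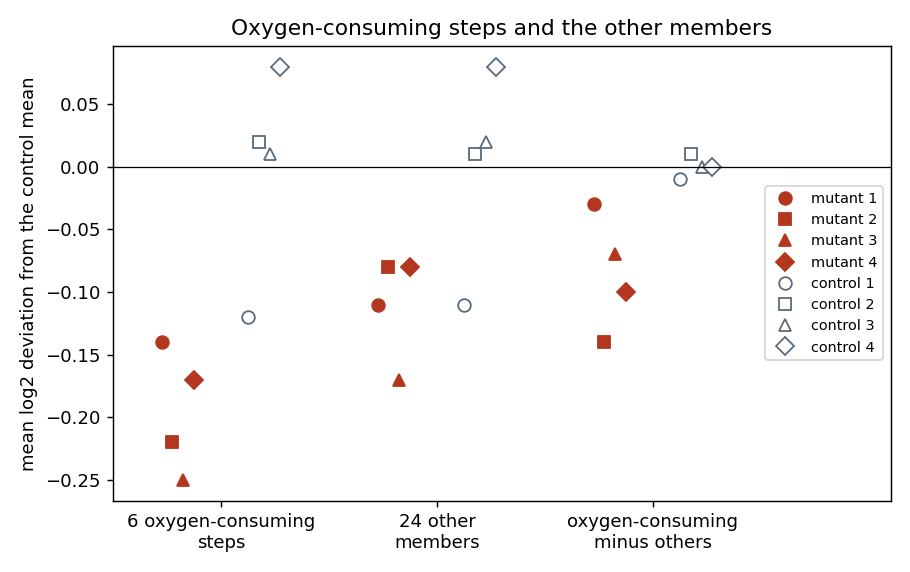
The vertical axis is the mean log2 deviation of a library from the control mean, over the 6 oxygen-consuming steps, over the 24 other members and as their difference, with filled mutants left of open controls. In the difference the mutants lie between −0.14 and −0.03 and the controls between −0.01 and 0.01. This difference rests on Msmo1 and Scd1 among the 6.

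**Figure D5:**
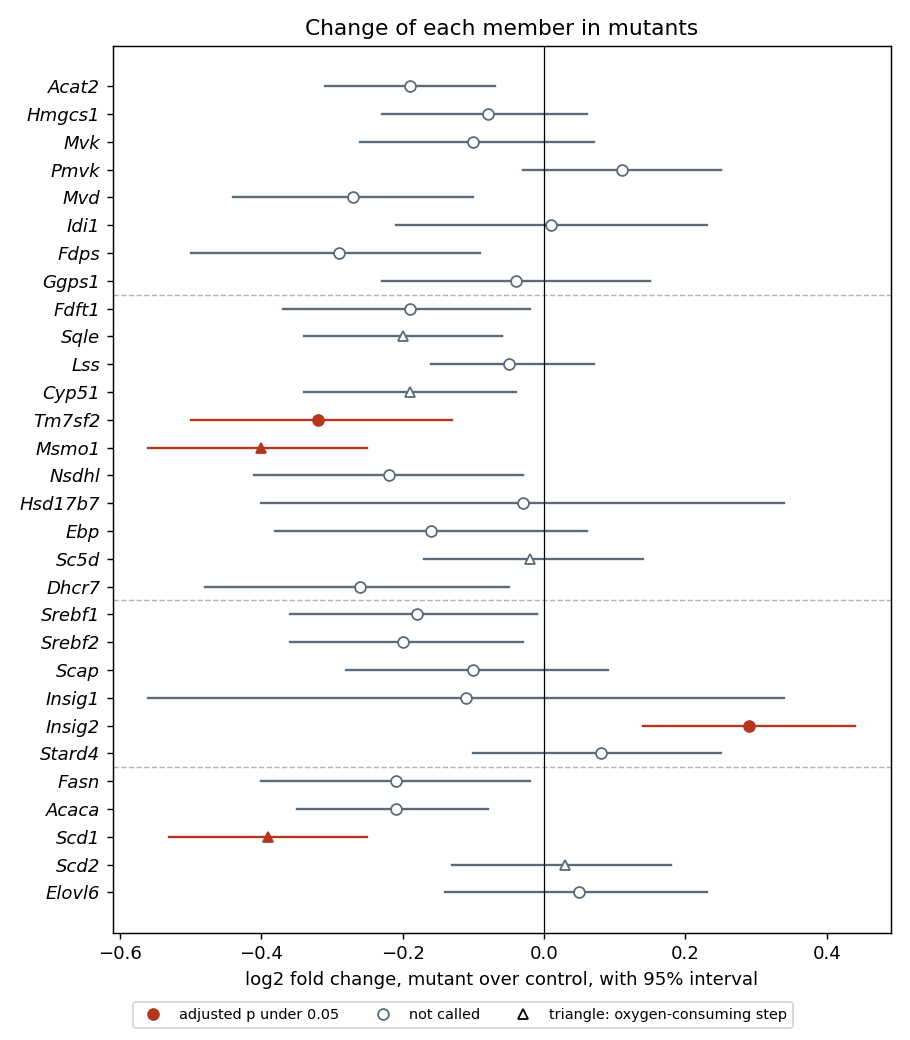
The log2 fold change of each member, mutant over control, is shown with its 95% interval from limma, filled red where called and as a triangle for an oxygen-consuming step. Msmo1 (−0.40), Scd1 (−0.39), Tm7sf2 (−0.32) and Insig2 (0.29) are called, and 24 of 30 estimates lie left of 0.

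Genes that act around the members were counted from lists of pathway genes. Of all tested genes 8.43% were called, 5.4% higher and 3.03% lower, and 51.5% had estimates below 0. A call of 1 gene in a list of 13 or 14 was near these shares. Of 13 tested SREBP proteases and proteins of sterol-regulated degradation, 1 was higher and 0 lower. This was Rnf145, a ubiquitin ligase that acts on HMG-CoA reductase, with 7853, 8718, 8199 and 8471 reads in mutants, against 5807, 6047, 6661 and 5526 in controls. It rose 1.38-fold (log2 fold change 0.47, SE 0.07, adjusted p = 0.000961). Of 14 tested genes of liver X receptors and sterol export, 1 was higher and 0 lower. Soat1, which esterifies cholesterol for storage, had 3606, 4293, 3963 and 3721 reads in mutants, against 1634, 1831, 2086 and 1891 in controls. With a 2.1-fold rise (log2 fold change 1.07, SE 0.08, adjusted p = 6.35e-06) it changed more than any of the 30 members.

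Of 13 tested other genes of sterol synthesis and uptake, 12 had estimates below 0, against 51.5% of all tested genes. Their median log2 fold change was −0.14, and 0 were higher and 1 was lower. This was Lipa, the lysosomal acid lipase that frees cholesterol from its esters, at 713 ± 35.9 in mutants and 861 ± 64.1 in controls (−0.27, adjusted p = 0.045, and up to 0.139 with 1 library left out). Of 34 tested other genes of fatty acid synthesis, elongation and desaturation, 1 was higher and 2 were lower, with a median of −0.06. Together these calls were near the 8.43% of all tested genes. Elovl5 and Fads1, an elongase and a desaturase of polyunsaturated fatty acids, fell. Elovl5 was at 2933 ± 57.6 in mutants and 3586 ± 108 in controls (−0.29, adjusted p = 0.00345), and Fads1 at 6012 ± 314 in mutants and 7205 ± 390 in controls (−0.26, adjusted p = 0.0204, and up to 0.0645 with 1 library left out). Hacd1, a dehydratase of the elongation cycle, rose to 743 ± 65.1 in mutants, against 533 ± 50.8 in controls (0.48, adjusted p = 0.00796), and shares 26.9% of its 50-base words with other genes.

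Hypoxia-inducible regulators of lipid uptake and storage formed a list that contains Insig2. Of its 11 tested genes 6 were higher, Insig2 among them, and 1 was lower, where 5.4% and 3.03% of all tested genes were. The list's genes were picked as hypoxia-inducible, with earlier results of these data known, and their median log2 fold change was 0.24. Vldlr, a lipoprotein receptor, averaged 5957 ± 532 in mutants and 1298 ± 146 in controls, 4.6-fold higher (adjusted p = 1.89e-08). Bhlhe40 and Bhlhe41, transcriptional repressors, rose 4.9-fold and 10-fold, to 2711 ± 188 and 470 ± 80.6 in mutants, against 559 ± 108 and 46.6 ± 11.6 in controls. Set beside these, the 1.22-fold rise of Insig2 was small. Hilpda, an inhibitor of lipolysis at lipid droplets, rose 1.61-fold (adjusted p = 0.015), and Plin2, a coat protein of lipid droplets, had a log2 fold change of 0.24 (adjusted p = 0.0451). Lrp1, a large lipoprotein receptor, fell to 10028 ± 585 in mutants, against 11958 ± 874 in controls (log2 fold change −0.25, adjusted p = 0.0414). With 1 library left out the adjusted p reached 0.057 for Hilpda, 0.129 for Plin2 and 0.142 for Lrp1, past the threshold of 0.05.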

How the data were processed

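RNA sequencing libraries of 8 samples were grouped by the genotype in their labels. Reads were processed by the authors with STAR (2.5.3a) and DESeq2 (1.18.1) on mm10, per the submitters' processing notes. Reads of overlapping genes may be split, since, for counter, annotation and strand setting, no name was given in the sources used here (labels, protocols and notes). The deposited table holds a signal per library: reads divided by size factors, and, from the values, divided again by the same factors (0.872 to 1.078) recycled down the genes. Both divisions were undone for 20254 of 20254 genes (relative tolerance 1e-09). The deposited table also holds the authors' log2 fold changes and adjusted p-values, used as an alternative; the authors' Wald score, also deposited, was not used.

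Genes that reached 10 normalised reads in 4 or more libraries (15381) were compared as log2(value + 1) with limma 3.58.1 in R 4.3.3 (variance trend, robust, no covariate), two-sided, with Benjamini-Hochberg adjustment over all tested genes. Fold changes are on this scale, and SDs are of normalised reads. Paralog ratios and Vhl had exact permutation tests. Positions, lengths and shared 50-base words come from GENCODE M21 (GRCm38), and promoters from RefSeq (24 of 30 members matched). Of the members, 9 overlap an exon on the opposite strand and 4 one on the same strand. Named genes are the members, Vhl, Six2, Cited1, called markers (1 is not reported here) and called genes of the pathway lists. The members, lists and libraries left out were chosen with earlier results of these data known.

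Libraries with the same replicate number were not treated as pairs. The deviations of mutant and control libraries with the same number correlated at 0.21, −0.14, −0.14 and 0.06. The highest correlation between the groups was 0.57, for mutant 2 with control 3. The labels do not give litters or batches, and these values cannot settle whether libraries shared them. Alternatives were other pseudocounts, filters and scaling, library weights, a replicate block, the values as deposited, the authors' table and left-out libraries. Totals of 37252683 to 46515762 reads per library stand behind these values, and their errors are SDs between libraries.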

Additional observations from a re-analysis of the deposited data

Results flagged for a closer look

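Dixon's criterion for 4 values (0.829) was applied to the 60 sets made by 30 members in 2 groups, and 7 sets had a library apart from the other 3. For a single set chance gives about 1 in 20. The sets share the same libraries and are not independent, so the 7 cannot be judged against that rate. Mutant 3 stood apart on the low side for 3 members: Fdps had 1664 normalised reads there, against 2044 to 2067 in the other mutants, Fdft1 had 1512 against 1795 to 1816, and Scd2 had 51919 against 56363 to 57130. Control 1 stood apart on the low side for Lss, with 1445 against 1503 to 1513 in the other controls, and for Ebp, with 549 against 673 to 681. Control 2 was low for Ggps1, with 1441 against 1805 to 1870. Control 4 was high for Sc5d, with 1022 against 913 to 929. None of these 7 members was called.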

How the results depend on the processing

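Msmo1 and Scd1 were called lower in each fit run, including the authors' deposited table. Tm7sf2 lost its call in several fits, among them those without a filter, with the values as deposited, with library quality weights and with the replicate block. Members called lower numbered 8 in the authors' deposited table and 11 with library quality weights (which called 8.93% of all tested genes lower), and 2 to 10 with 1 library left out, the 10 without control 1. Members called higher numbered 0 with the values as deposited, with the replicate block and in both fits without a pair of libraries (control 3 with mutant 2, or control 2 with mutant 2), and 0 to 1 with 1 library left out. The replicate block left Msmo1 and Scd1 as the called members, and 766 called genes in all, 550 higher and 216 lower. All called genes numbered 697 with the values as deposited (537 higher, 160 lower), 2996 with library weights (1622 and 1374), 764 (541 and 223) with control 3 and mutant 2 left out, 662 (487 and 175) with control 2 and mutant 2 left out, and 774 to 1565 with 1 library left out (541 to 913 higher, 231 to 652 lower). The authors' deposited table had 810 lower genes.

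The lists held 13 tested other sterol genes, 13 of SREBP cleavage and degradation and 14 of liver X receptors and export. They held 34 other fatty acid genes and 11 hypoxia-inducible regulators. Of all tested genes, 8.93% were lower with weights and 4.24% without control 1. By the authors' adjusted p, 7.12% of genes were higher and 5.35% lower. The lists were not tested against these shares. Of other sterol genes, 0 were lower without a filter, with the values as deposited, with the block and in both fits without a pair. That number was 3 in the authors' table and with weights, and 0 to 1 with 1 library left out. Of SREBP cleavage and degradation genes 2 were lower with weights (0 to 1 with 1 library left out), and of liver X receptor and export genes 1 in the authors' table and 3 with weights (0 to 1). Of other fatty acid genes 2 were higher in the authors' table and with weights (1 to 2 with 1 library left out). Of these, 0 were lower with the values as deposited, 8 with weights, 1 with the block and in both fits without a pair, and 1 to 4 with 1 library left out. Of hypoxia-inducible regulators 3 were higher without control 3 and mutant 2 (3 to 5 with 1 library left out), and 0 lower without a filter, with the values as deposited, with the block and in both fits without a pair (0 to 1).

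Estimates near 0 changed sign. Idi1 had −0.0011 by limma-voom, −0.038 with weights and −0.043 without control 3 and mutant 2 (−0.065 to 0.084 with 1 library left out), and Insig1 0.058 without control 2 and mutant 2 (−0.26 to 0.0087). With 1 library left out, Hsd17b7 ran from −0.17 to 0.069, Sc5d from −0.061 to 0.02, Scd2 from −0.034 to 0.058, Elovl6 from −0.018 to 0.088, and the Srebf1 to Srebf2 ratio difference from −0.002 to 0.042. The ratio differences ran from 0.27 to 0.57 for Insig2 to Insig1 and from −0.45 to −0.38 for Scd1 to Scd2. Without control 1 each had an adjusted exact p of 0.0429, from the smallest unadjusted p that the remaining relabellings allow. For Insig2 to Insig1, control 1 (−0.40) was the control inside the mutants' range, so leaving it out fixed the separation. For Scd1 to Scd2 the unadjusted exact p was the smallest possible with all libraries as well (0.0286). Its adjusted exact p of 0.0857 fell without control 1 only because Insig2 to Insig1 reached its smallest p too. Among single genes and settings, 685 values kept direction and side of the threshold, 72 lost it, 23 gained it and 18 reversed. The cause of these changes was not tested. The planned edgeR and DESeq2 fits on recovered reads were not run; limma-voom was run on those reads.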
